A study of Homo sapiens with 5 samples.

Results

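The genes described here encode the proteins of the cytosolic ribosome, the particle that makes protein from messenger RNA. Members were the rows of the count table whose symbol is RPL or RPS, a number and at most one of the letters A, X or L, together with RPLP0, RPLP1, RPLP2 and RPSA. The rule found 81 of 25343 gene rows, 49 for the large subunit and 32 for the small subunit. The 5 stranded mRNA libraries came from SW620 cells, a line from a human colon carcinoma, and all carried tet-MUC1shRNA, a hairpin RNA that tetracyclines induce and that targets MUC1, a transmembrane mucin gene. The labels call 2 libraries pos (replicates 1 and 3) and 3 libraries neg (replicates 1, 2 and 3). They say that cells received doxycycline, the drug that switches on such an shRNA, or vehicle, but not which name stands for which, so the names pos and neg are kept. With no control hairpin among these libraries, an effect of the drug and one of MUC1 loss cannot be told apart. All libraries come from one cell line, and nothing in the labels says that the libraries of a group came from separate experiments, so p-values measure the spread between these libraries, which may be technical.

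Each ribosome holds a large subunit, which joins amino acids and threads the new chain through an exit tunnel, and a small subunit, which decodes the messenger RNA. Both need their proteins in equal numbers, with the acidic stalk proteins as the main exception, and messenger RNAs for these proteins are among the most abundant in dividing cells. Most of these transcripts start with a C and a run of pyrimidines, the 5′ terminal oligopyrimidine (TOP) tract, through which the growth-regulating kinase mTORC1 controls their translation. Proteins of unassembled subunits can act outside the ribosome, as when RPL5 and RPL11 with 5S rRNA bind MDM2, the ubiquitin ligase that keeps p53 low.

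Total counts were 12190025 and 13470767 in pos replicates 1 and 3 and 10888704 to 14137678 in neg. MUC1 had 27 and 13 reads in pos replicates 1 and 3, against 176, 252 and 218 in neg replicates 1, 2 and 3 (log2 fold change -3.07, SE 0.34, adjusted p = 0.0270 in edgeR's quasi-likelihood test). The 7 colon epithelium markers summed to 6957 and 14233 CPM (counts per 1000000 of the library size after TMM normalisation) in pos and to 5062 to 6496 CPM in neg. Among them KRT20 was near 0, with 0 and 4 reads in pos, against 16, 31 and 23 in neg, CDX2 rose (log2 fold change 2.18, SE 0.33, adjusted p = 0.0337) and CDH1 fell (log2 fold change -1.68, SE 0.34, adjusted p = 0.0434). Most of the epithelium sums came from KRT8 and KRT18, at 3678 and 2257 CPM in pos replicate 1 and 7637 and 5660 CPM in pos replicate 3. Of 5 fibroblast, 4 leukocyte and 3 endothelium markers, COL1A2, COL3A1, PTPRC and CD3E were among those with 0 reads in all 5 libraries, and the lists summed to at most 21.0, 1.79 and 4.02 CPM in any library. Of these 12, COL1A1 fell (log2 fold change -1.36, SE 0.21, adjusted p = 0.0340). The pos libraries differ from each other in a trend on transcript length, which bears on genes as short as these and is given beside the results.

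The annotated transcription starts of the members show the TOP tract that the family is known for, and they are given because genes at both ends of the range of change share it. RefSeq promoter entries (GRCh38.p14) were found for 64 of the 81 members. A C followed by at least 4 pyrimidines (C or T), on the strand of the gene and beginning within 5 bases of the annotated start, was found in 50 of these 64, or 78.1%. The same pattern was found in 21.1% of the 27305 genes with a promoter entry. It is a description of the letters and not of translation, which was not measured. The lines below give 10 bases before to 20 bases from the start, 5′ to 3′, with the C and its pyrimidine run in capitals, for 3 small subunit genes among the 6 with the largest log2 fold change and 3 large subunit genes among the 6 with the smallest.
RPS21: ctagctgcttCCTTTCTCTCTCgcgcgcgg
RPS14: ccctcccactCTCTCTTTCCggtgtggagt
RPS18: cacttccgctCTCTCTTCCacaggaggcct
RPL4: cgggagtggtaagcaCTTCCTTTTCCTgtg
RPL22: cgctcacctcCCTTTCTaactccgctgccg
RPL36A: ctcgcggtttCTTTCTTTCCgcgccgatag
The windows lie at chr20:62387093-62387122, plus strand for RPS21, chr5:150449720-150449749, minus strand for RPS14, chr6:33272065-33272094, plus strand for RPS18, chr15:66504836-66504865, minus strand for RPL4, chr1:6199576-6199605, minus strand for RPL22 and chrX:101391001-101391030, plus strand for RPL36A. RPS29, which had the second largest log2 fold change, is one of the members without the pattern at its annotated start. The median log2 fold change was 1.69 for the 49 tested members with the pattern and 1.49 for the 13 without it. Among the 2209 other tested genes with the pattern it was -0.03.

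Of all reads in genes, ribosomal protein genes held 16.3% and 28.9% in pos replicates 1 and 3, against 10.8%, 9.76% and 8.94% in neg replicates 1, 2 and 3. Both pos libraries lay above all 3 neg libraries, and pos replicate 3 lay far above pos replicate 1. The mean share was 22.6 ± 8.92% in pos (SD, n = 2) and 9.84 ± 0.934% in neg (SD, n = 3). In this bulk RNA, fewer cells of a kind and less RNA per cell cannot be told apart. Genes with at least 1 read numbered 14452 and 15530 in pos replicates 1 and 3, against 16853, 17054 and 16832 in neg, and the part of this in the members' share was not tested. The single member with most reads was RPS6, the classic substrate of S6 kinase, in pos replicate 1 and in all 3 neg libraries, and RPS18 in pos replicate 3.

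**Figure D1:**
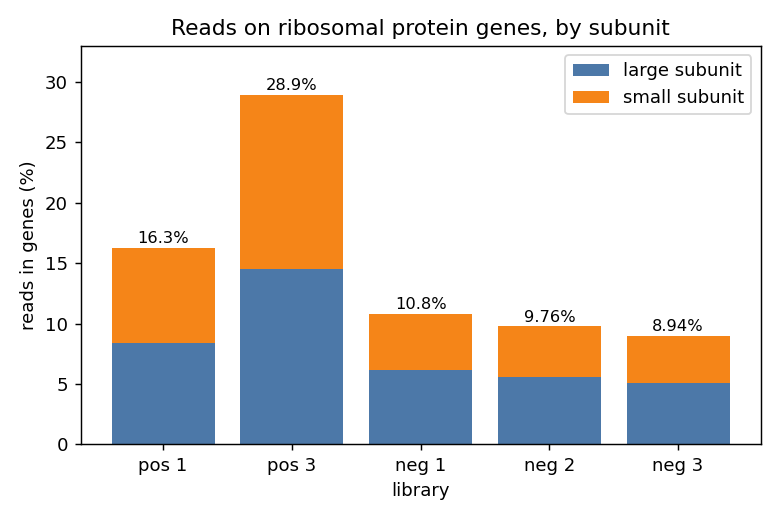
Stacked bars give the percentage of reads in genes that fell on large and small subunit ribosomal protein genes in each of the 5 libraries, with the total printed above each bar. The total is 16.3% and 28.9% in pos, against 8.94% to 10.8% in neg, and the small subunit part of the bar is close to the large subunit part only in pos.

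The difference was not even between the subunits. Of all ribosomal protein reads, small subunit genes held 48.7% and 49.7% in pos replicates 1 and 3, against 43.1%, 43.3% and 43.5% in neg replicates 1, 2 and 3. The 3 neg libraries lay close together in this share and both pos libraries lay well above them. As a ratio within each library, this share does not depend on how libraries are scaled to each other. Normalised to neg, the 45 tested large subunit genes had median log2 ratios of 0.69 (pos replicate 1) and 2.08 (pos replicate 3). The 31 tested small subunit genes had 0.95 and 2.39 in the same libraries. Large subunit genes were thus -0.25 and -0.31 on the log2 scale relative to small subunit genes in the pos libraries, while the same difference lay between -0.03 and 0.03 in the neg libraries. Median coding lengths were 471 nt for large and 453 nt for small subunit genes, while canonical transcripts were longer in the large subunit, with medians of 1017 and 741 nt. With each library's trend on coding length removed, the large subunit median stayed below the small subunit median, at 0.45 against 0.62 in pos replicate 1 and 1.06 against 1.47 in pos replicate 3. With the trend on transcript length removed, the large and small subunit medians were 0.40 and 0.60 in pos replicate 1, and 0.65 and 0.98 in pos replicate 3. Genes share their libraries, so these medians are descriptions with no p.

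The test across all genes (edgeR quasi-likelihood, Benjamini-Hochberg over 13604 genes, adjusted p of at most 0.05) could be applied to 76 of the 81 members, since 5 had too few reads. Of these 76, 21 rose in pos and 0 fell, where 5.06% of all tested genes rose and 4.13% fell. Those that rose were 9 of 45 large subunit genes and 12 of 31 small subunit genes. The median log2 fold change was 1.62 over tested members, or 3.07-fold, and -0.05 over all tested genes. It ranged from 0.16 for RPL36A to 2.62 for RPS21 and was above 0 for all 76 tested members. Adjusted p lay between 0.05 and 0.10 for 48 members and above 0.10 for 7, which were RPL3, RPS2, RPL28, RPL7, RPL22, RPL39 and RPL36A. In CPM both pos libraries lay above every neg library for 73 of 76 members, RPL28, RPL36A and RPL39 being the exceptions, against 26.7% of all tested genes (29.3% had both pos libraries below every neg library, and no member did). The DESeq2 test called 72 members higher and 0 lower, against 13.2% of all tested genes higher. In edgeR 73 members had an unadjusted p under 0.05, against 34.6% of all tested genes. Without neg replicate 1, 2 or 3 edgeR called 0 members and 0 other genes, with 67, 62 and 51 members at an unadjusted p under 0.05 (against 22.6%, 18.7% and 19.3% of all tested genes) and 66, 56 and 55 called higher by DESeq2 (against 6.20%, 4.45% and 4.14%). Without pos replicate 1 edgeR called 75 members higher, where 30.9% of all tested genes were called higher and 32.1% lower. Without pos replicate 3 it called 59 members higher, where 14.4% of all tested genes were called higher and 17% lower. Each of these last 2 fits measures a single pos library that is assumed to vary like neg.

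**Figure D2:**
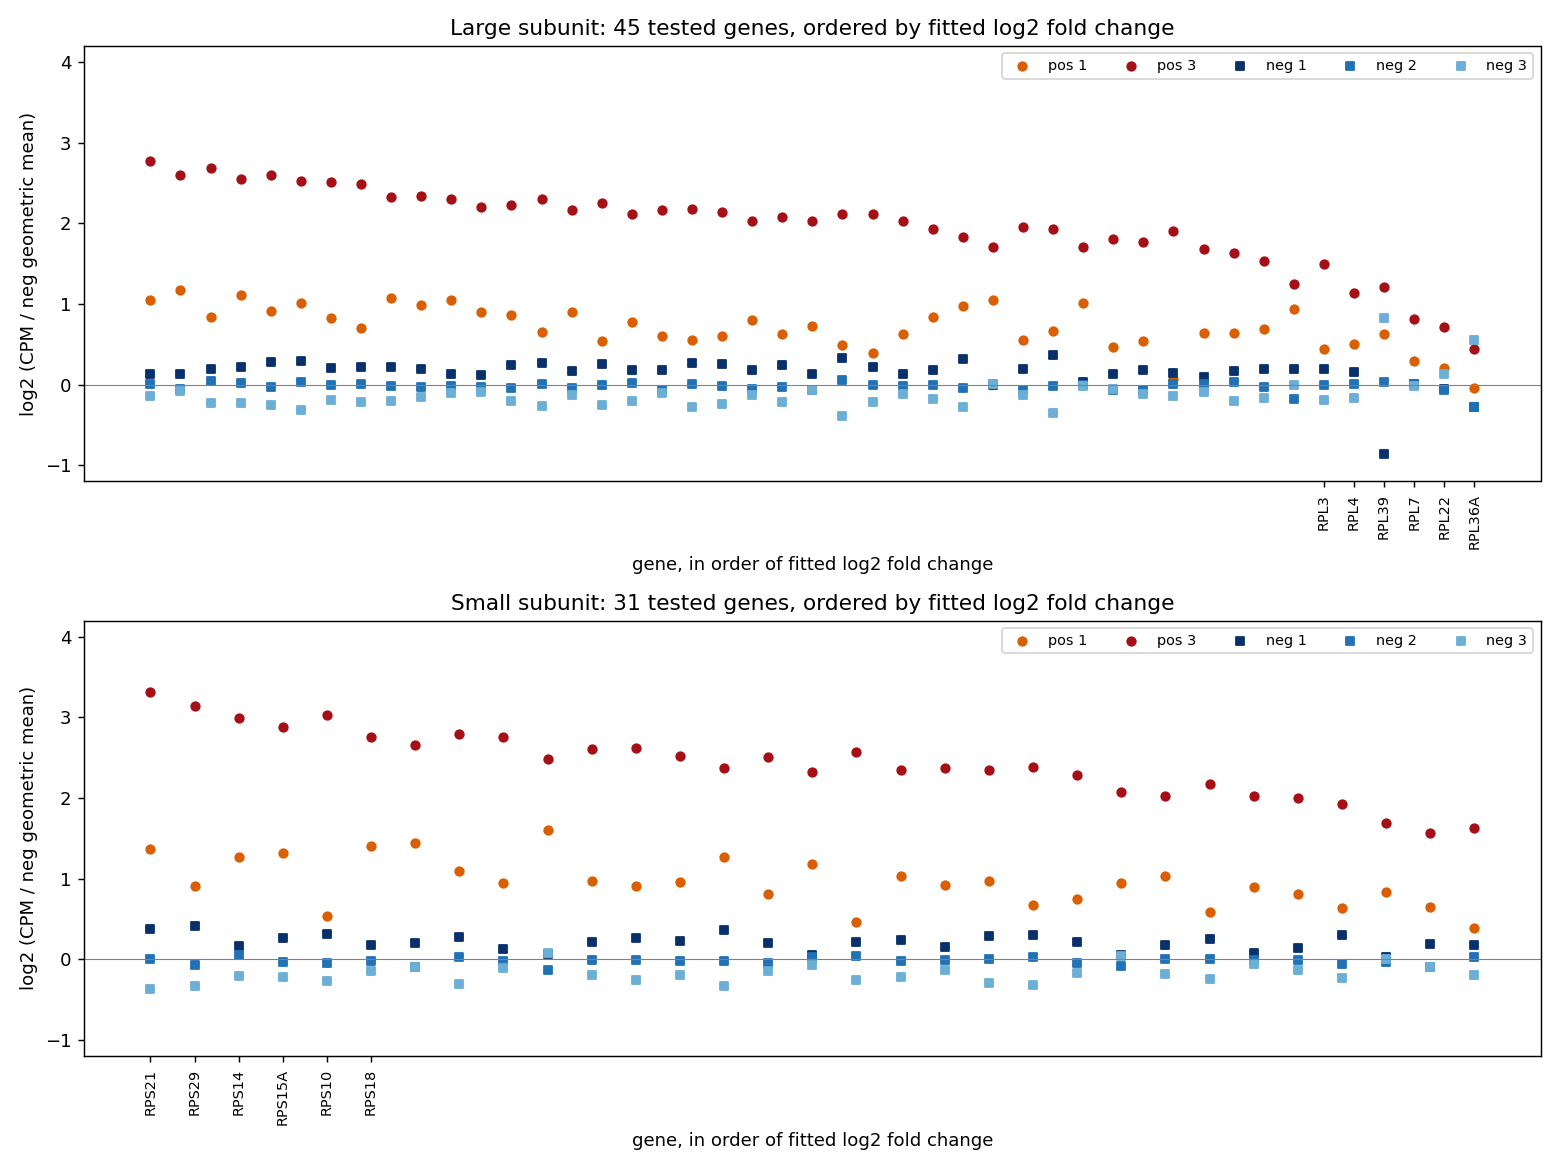
Each column is a tested gene and each point a library, circles for pos and squares for neg, with the vertical axis giving log2 of CPM over the geometric mean of the 3 neg libraries. Large subunit genes are above and small subunit genes below, each ordered by fitted log2 fold change, with names under the 6 largest and the 6 smallest, and pos replicate 3 lies above pos replicate 1 for every one of the 76 genes.

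The 6 members with the largest log2 fold change were all of the small subunit. This order is that of the fit with no step for length. With the transcript length trend removed RPL14 (2.57) and RPL27A (2.49) of the large subunit lay above RPS21 (1.30). RPS21 had 2055 and 7948 CPM in pos replicates 1 and 3, against 1028, 796 and 618 CPM in neg replicates 1, 2 and 3 (log2 fold change 2.62, SE 0.57, adjusted p = 0.0464, edgeR, as for all such values below). RPS14, whose loss of one copy underlies the anemia of the 5q- syndrome, had 3232 and 10677 CPM in pos replicates 1 and 3, against 1497, 1389.7 and 1164 CPM in neg replicates 1, 2 and 3 (log2 fold change 2.36, SE 0.50, adjusted p = 0.0453). RPS18 had 8358 and 21274 CPM in pos replicates 1 and 3, against 3553, 3093 and 2858 CPM in neg replicates 1, 2 and 3 (log2 fold change 2.23, SE 0.43, adjusted p = 0.0401). In each of these genes pos replicate 3 was more than 2-fold above pos replicate 1, and pos replicate 1 was in turn above the highest neg library. RPS15A had 2163 and 6409 CPM in pos, against 1042, 846 and 745 CPM in neg, and its log2 fold change was 2.29 (SE 0.47, adjusted p = 0.0444). RPS29, a zinc-binding protein of the small subunit head, and RPS10 had large log2 fold changes that did not pass the test, and their pos libraries lay far apart. RPS29 had 596 and 2813 CPM in pos, against 422, 301 and 253 CPM in neg (log2 fold change 2.39, SE 0.62, adjusted p = 0.0628). RPS10 had 62.9 and 356 CPM in pos, against 54.1, 42.2 and 36.1 CPM in neg (log2 fold change 2.25, SE 0.66, adjusted p = 0.0776), and its pos replicate 1 value was close to the highest neg value.

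The 5 members with the smallest p were RPS3A, RPS7, RPL9, RPS18 and RPL5. RPS3A had 3825 and 7054 CPM in pos replicates 1 and 3, against 1311, 1149 and 1322 CPM in neg replicates 1, 2 and 3 (log2 fold change 2.11, SE 0.31, adjusted p = 0.0337). RPS7, one of the genes mutated in Diamond-Blackfan anemia, had 3166 and 7343 CPM in pos replicates 1 and 3, against 1330.3, 1084 and 1087 CPM in neg replicates 1, 2 and 3 (log2 fold change 2.17, SE 0.39, adjusted p = 0.0386). RPL9 was at almost one level in neg, with 1800.4 and 2841 CPM in pos, against 866, 868 and 868 CPM in neg (log2 fold change 1.42, SE 0.26, adjusted p = 0.0386). RPS6 also rose, with 8776 and 19357 CPM in pos, against 4007, 3918 and 3656 CPM in neg (log2 fold change 1.87, SE 0.38, adjusted p = 0.0433). Each of the 4 was higher in both pos libraries than in any neg library. RPSA, which also serves as a laminin receptor precursor, rose (1316 and 2839.6 CPM in pos, against 702, 539 and 434 CPM in neg; log2 fold change 1.90, SE 0.39, adjusted p = 0.0443). RPS27A, made as a fusion with ubiquitin, rose as well (1569.8 and 3911 CPM in pos, against 906, 757 and 659 CPM in neg; log2 fold change 1.82, SE 0.41, adjusted p = 0.0483). The other members that passed included RPL13A, RPL17, RPL24, RPL27A, RPL34, RPL35 and RPL41 of the large subunit and RPS13 and RPS25 of the small subunit, at log2 fold changes of 1.09 (RPL17) to 2.15 (RPL35).

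The 6 members with the smallest log2 fold change were all of the large subunit, and none passed the test. That order, too, is from the fit with no step for length. With the transcript length trend removed RPS2 of the small subunit (0.08) lay below RPL22 (0.10), and RPL4 (0.71, adjusted p = 0.0379) passed. With the coding length trend removed RPS27L of the small subunit (0.05) lay below RPL4 (0.78) and RPL3 (0.94). RPL36A had 88 and 95 reads in pos, against 87, 97 and 134 in neg (log2 fold change 0.16, SE 0.36, adjusted p = 0.759), and its groups overlapped. RPL22, an RNA-binding member of the large subunit, had 216 and 307 CPM in pos replicates 1 and 3, against 179.9, 178 and 204 CPM in neg replicates 1, 2 and 3 (log2 fold change 0.48, SE 0.22, adjusted p = 0.180). RPL7 had 1144 and 1643 CPM in pos replicates 1 and 3, against 946, 945 and 923 CPM in neg replicates 1, 2 and 3 (log2 fold change 0.57, SE 0.23, adjusted p = 0.142). In both genes pos replicate 1 was above the highest neg library but nearer to it than to pos replicate 3. RPL39, a small protein that lines the exit tunnel, had 54.0 and 80.4 CPM in pos, against 19.3, 35.6 and 61.9 CPM in neg (log2 fold change 0.79, SE 0.48, adjusted p = 0.282), where neg replicate 3 lay above pos replicate 1. RPL4, which reaches into the exit tunnel, had 3739 and 5800.4 CPM in pos, against 2952, 2663 and 2359 CPM in neg (log2 fold change 0.84, SE 0.28, adjusted p = 0.0963). RPL3, which lies near the catalytic centre, had 3443 and 7167 CPM in pos, against 2908, 2532 and 2217 CPM in neg (log2 fold change 1.06, SE 0.36, adjusted p = 0.1004). RPL4 and RPL3 have the longest coding sequences of the tested members, at 1281 and 1209 nt. The direction of RPL36A was lower in pos with library size as the only scaling (log2 fold change -0.26), and those of RPL36A, RPL7 and RPL39 with the transcript length trend removed (-0.89, -0.19 and -0.28). With the coding length trend removed RPL36A, RPL22 and RPL39 were lower in pos (-0.77, -0.33 and -0.64).

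By function, the stalk proteins that recruit elongation factors did not pass the edgeR test. Of these, 3 of 3 had an unadjusted p under 0.05 and DESeq2 called 3 higher. Beside this and the counts below, 34.6% of all tested genes had such a p, edgeR called 5.06% higher and DESeq2 called 13.2% higher. RPLP0, the base of the stalk, averaged 5879 ± 2405 CPM in pos and 2159 ± 452 CPM in neg (SD, n = 2 and 3; log2 fold change 1.45, SE 0.34, adjusted p = 0.0532). RPLP1 and RPLP2, which bind RPLP0 as dimers, were at log2 fold changes of 1.69 (SE 0.49, adjusted p = 0.0752) and 1.57 (SE 0.48, adjusted p = 0.0825). Of the 3 genes listed for p53 regulation, all of which DESeq2 called higher, RPL5 rose in edgeR (3931 and 6360.2 CPM in pos, against 1984, 1936 and 1929 CPM in neg; log2 fold change 1.40, SE 0.28, adjusted p = 0.0417). RPL11, its partner in the 5S particle, had 1523 and 3833 CPM in pos, against 1203, 1046 and 1054 CPM in neg (log2 fold change 1.28, SE 0.40, adjusted p = 0.0839), and RPL23 was at 1.27 (SE 0.38, adjusted p = 0.0793). Of 8 genes at the exit tunnel 2 rose, RPL17 and RPL35, and of 7 on the decoding side of the small subunit 1 rose, RPS27A, at list medians of 1.53 and 1.82. An unadjusted p under 0.05 was reached by 7 genes at the exit tunnel and 7 on the decoding side, and DESeq2 called 7 and 7 higher. RPL35 had 1985 and 6581 CPM in pos, against 1054, 967 and 869 CPM in neg and RPL31 1539 and 3959 CPM in pos, against 998, 822 and 737 CPM in neg (log2 fold change 1.69, SE 0.42, adjusted p = 0.0554). RPS3, which forms part of the mRNA entry site, had 6466 and 19113 CPM in pos, against 3880.4, 3271 and 2919 CPM in neg (log2 fold change 1.93, SE 0.47, adjusted p = 0.0549). RPS26, which contacts mRNA at the exit site, had 148 and 515 CPM in pos, against 83.6, 75.2 and 71.0 CPM in neg (log2 fold change 2.11, SE 0.49, adjusted p = 0.0514). In each of these 4 genes both pos libraries lay above all neg libraries.

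Genes mutated in Diamond-Blackfan anemia, an inherited failure of red cell production, were on both sides of the edgeR threshold. Of 8 tested members of that list 2 rose, RPS7 and RPL5, where 5.06% of all tested genes rose. The median log2 fold change of the list was 1.71. All 8 had an unadjusted p under 0.05 and DESeq2 called 8 higher, against 34.6% and 13.2% of all tested genes. RPS19, the gene most often mutated in that disease, had 1608 and 5305 CPM in pos, against 1248, 1033 and 809 CPM in neg (log2 fold change 1.75, SE 0.51, adjusted p = 0.0752). RPS24 had 3803 and 6906 CPM in pos, against 2187, 2092 and 2142 CPM in neg (log2 fold change 1.32, SE 0.31, adjusted p = 0.0508). RPL35A had 2378 and 5716 CPM in pos, against 1425, 1237 and 1166 CPM in neg (log2 fold change 1.67, SE 0.39, adjusted p = 0.0519). RPS19, RPS24, RPL35A, RPS26, RPL11 and RPS10 thus stayed above an adjusted p of 0.05.

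Levels between members are compared per kilobase (kb) of transcript, scaled to a sum of 1000000 units over all genes of a library. By canonical transcript length RPS18, RPS24, RPS6 and RPS12 of the small subunit were among the members with the highest mean levels in neg. RPS18 was at 27272 and 35379 such units in pos replicates 1 and 3, against 14397, 13602 and 13367 in neg replicates 1, 2 and 3. RPS24 was at 12758 and 11807 units in pos, against 9112, 9459 and 10297 in neg. The ranges of RPS18 and RPS24 did not overlap within neg. The canonical transcripts of 18 tested members are annotated at over 2000 nt (GENCODE 44), up to 7573 nt for RPL37 with a coding length of 291 nt, so this scale understates members whose expressed RNA is shorter. Per kb of coding sequence the order in neg was RPS18, RPL41, RPS24, RPL37A and RPS6. RPL41, which encodes one of the shortest known proteins from 75 nt, moved from rank 52 by canonical to rank 2 by coding length. The middle 50% of tested members lay between 2236 and 4817 units by coding length in pos replicate 1 and, in pos replicate 3, between 2720.2 and 7655, against 1846 to 3740.3 in neg replicate 1.

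A few members were counted far below the rest. RPL21 is listed at 0 in all 5 libraries, where 3 reads would be 0.212 to 0.276 CPM of total counts. GENCODE 44 names 133 pseudogenes after RPL21, the most for any member, followed by 91 after RPL23A. RPL36A, RPL17 and RPS10 had the lowest mean levels per coding kb in neg of the tested members, and each shares exons on the same strand with an annotated readthrough gene. These readthrough rows, RPL17-C18orf32, RPS10-NUDT3 and RPL36A-HNRNPH2, had 0 reads in every library. How reads shared between such genes were counted is not given in the sources used here, so the low levels of RPL17, RPS10, RPL36A and RPL21 are uncertain as levels of expression.

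Some ribosomal protein genes have paralogs, near copies elsewhere in the genome, whose reads may be split between the pair. RPL22L1, the paralog of RPL22, rose, with 735 and 949 reads in pos, against 405, 435 and 378 in neg (log2 fold change 1.47, SE 0.26, adjusted p = 0.0386). In reads it stood at 27.6% and 32.6% of RPL22 in pos replicates 1 and 3, against 15.7%, 15.4% and 14.9% in neg replicates 1, 2 and 3. Both pos libraries lay well above the narrow range in neg. The canonical transcripts of RPL22L1 and RPL22 are annotated at 1902 and 2061 nt, and the part of length in this share was not tested. In mouse, Rpl22 is known to hold down its paralog Rpl22l1. RPL22L1 also passed with the transcript length trend removed (log2 fold change 1.01, adjusted p = 0.0165), but not with the coding length trend removed (0.61, adjusted p = 0.0749).

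RPS27L, a p53-inducible paralog of RPS27, had 494 and 716 reads in pos, against 417, 380 and 296 in neg (log2 fold change 1.17, SE 0.31, adjusted p = 0.0629). RPS27 itself was at 901 and 2935 CPM in pos, against 591, 495 and 464 CPM in neg (log2 fold change 1.89, SE 0.48, adjusted p = 0.0589). RPS27L reads were 4.44% and 2.57% of RPS27 reads in pos, against 4.82% to 5.13% in neg, so the share was lower in pos in these libraries. The RPS27L transcript is annotated at 6110 nt and that of RPS27 at 352 nt. RPL7L1, a nuclear relative of RPL7, had 1214 and 638 reads in pos, against 1147, 1235 and 852 in neg (log2 fold change 0.13, SE 0.23, adjusted p = 0.696), and its direction was lower in pos with library size as the only scaling. RPL26L1 had 328 and 636 reads in pos, against 233, 280 and 190 in neg (log2 fold change 1.51, SE 0.39, adjusted p = 0.0615) and kept close to RPL26, which had 2125 and 5205 CPM in pos, against 1405, 1226 and 1221 CPM in neg (log2 fold change 1.51, SE 0.39, adjusted p = 0.0614). RPL36AL, the autosomal copy of the X-linked RPL36A, had 2728 and 4490 reads in pos, against 2636, 2626 and 2114 in neg (log2 fold change 1.003, SE 0.33, adjusted p = 0.0953), many times the reads of RPL36A, and its log2 fold change was -0.19 with the transcript length trend removed. RPL10, also X-linked, had 1464 and 3521 CPM in pos, against 1193, 913 and 726 CPM in neg (log2 fold change 1.40, SE 0.42, adjusted p = 0.0798). Its testis copy RPL10L had 2 and 0 reads in pos, against 1, 1 and 0 in neg, the muscle copy RPL3L of RPL3 had 0 and 0 reads in pos, against 2, 1 and 2 in neg, and RPL39L had 1 and 1 reads in pos, against 1, 1 and 3 in neg, so none of the 3 was measurable at this depth.

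**Figure D3:**
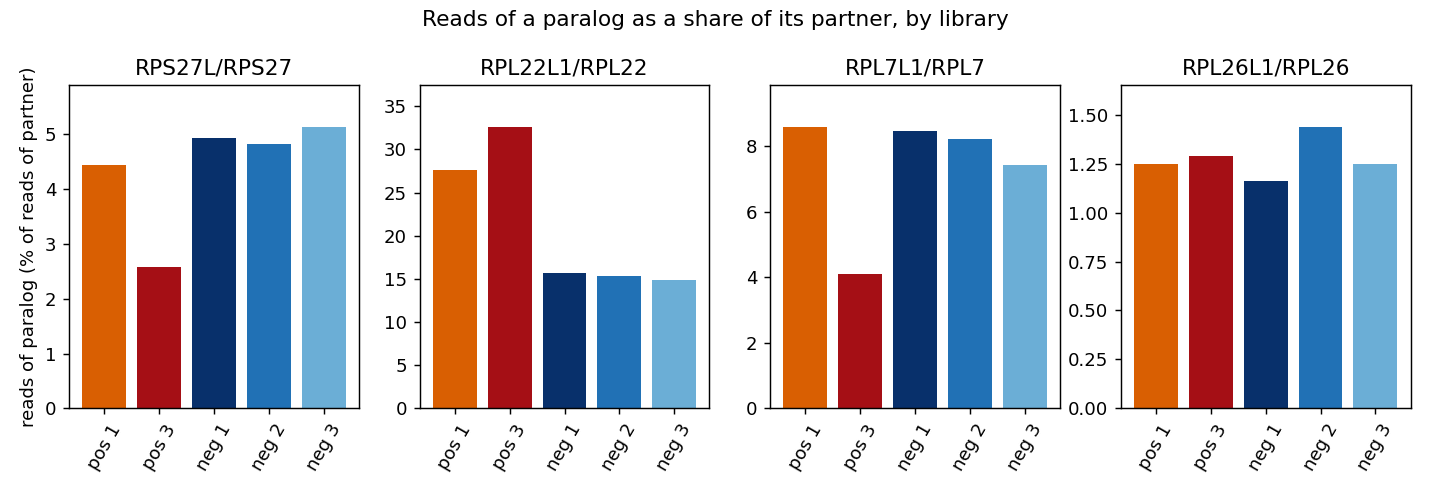
Bars give the reads of a paralog as a percentage of the reads of its partner in each library, with a separate vertical scale from 0 for each pair. RPL22L1 stands at 27.6% and 32.6% of RPL22 in pos, against 14.9% to 15.7% in neg, while RPL26L1 stays between 1.16% and 1.44% of RPL26 in all 5 libraries.

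The pos libraries were also taken one at a time, since their trends on transcript length differed. In pos replicate 1, 19 of 76 members were at least 2-fold above the neg mean, against 5.64% of all tested genes. In pos replicate 3, 73 were, against 18.8% of all tested genes, and the 3 that were not were RPL22, RPL7 and RPL36A. The median log2 ratio to neg was 0.83 in pos replicate 1 and 2.18 in pos replicate 3, where the neg libraries themselves lay between -0.18 and 0.19. Directly between the pos libraries, replicate 3 exceeded replicate 1 by a median of 1.35 on the log2 scale, from 0.30 for RPL17 to 2.499 for RPS10. The median of all tested genes was 0.00 in that comparison.

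Among the other tested genes, the log2 ratio of pos replicate 3 to neg fell with coding length (Pearson r = -0.53 over 12487 genes, which share libraries and are not replicates), and that of pos replicate 1 did so less steeply (r = -0.25). Within the 76 members the same relation was r = -0.20 in pos replicate 3 and r = 0.05 in pos replicate 1. On canonical transcript length it was r = -0.21 for members and r = -0.62 for 13110 other genes in pos replicate 3. In pos replicate 1 it was r = -0.24 for members and r = -0.23 for the other genes, nearly the same. Members code for 75 to 1281 nt, where the median of all tested genes is 1413 nt. Over so narrow a range, r on coding length is not directly comparable with that of the other genes. Coding length was used here beside transcript length because of the long annotated ends named above, a choice made after the data were seen. The median of members was above that of other genes in each of the 5 ranges of coding length in both pos libraries, by least in the shortest range in pos replicate 1. Of genes coding for 451 to 600 nt, the 18 members had median log2 ratios of 0.91 and 2.32 in pos replicates 1 and 3, against 0.23 and 0.74 for the 717 other genes. Of genes coding for 601 to 900 nt, the 19 members were at 0.84 and 2.03, against 0.17 and 0.53 for 1711 other genes. Of genes coding for at most 300 nt, the 10 members were at 0.64 and 2.17, against 0.59 and 1.37 for 252 other genes, so that in pos replicate 1 they were close to genes of their length. In all, 70 of 76 members in pos replicate 1 and 73 of 76 in pos replicate 3 lay above the median of the other genes in their range of coding length.

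**Figure D4:**
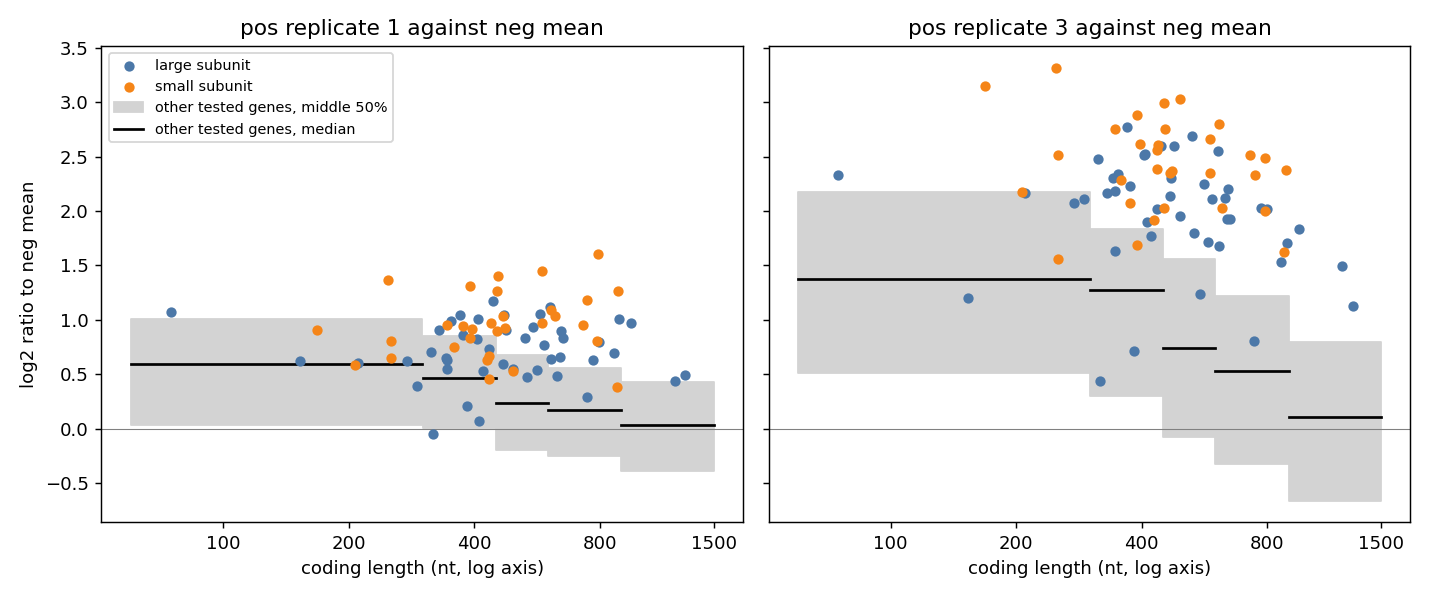
Each point is a tested ribosomal protein gene, with its coding length on a log axis and its log2 ratio to the neg mean, in pos replicate 1 on the left and pos replicate 3 on the right. Grey bands and black lines give the middle 50% and the median of the other tested genes in 5 ranges of coding length, and most points lie above the line, by more in pos replicate 3.

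With each library's transcript length trend removed, 36 members rose and 0 fell, against 7.45% of all tested genes higher and 7.22% lower, at a median log2 fold change of 0.65. Of the 21 called without that step 16 were among them, and RPL5, RPL9, RPL17, RPS13 and RPS25 were not. The step lowered the median of members but raised some whose canonical transcript is annotated as long. RPL14 (7136 nt) went from 1.69 to 2.57 and RPS27L (6110 nt) from 1.17 to 1.85, and neither passed without a step for length. The count of 36 thus depends in part on annotated lengths. With the trend on coding length removed, 23 rose and 0 fell, against 4.54% higher and 4.61% lower, at a median of 0.92. The pos libraries came closer together but still differed, with medians of 0.50 and 0.81 in pos replicates 1 and 3 by transcript length and 0.49 and 1.27 by coding length. RPS3A was at 1.06 (SE 0.15, adjusted p = 0.0133) by transcript length and 1.73 (SE 0.21, adjusted p = 0.0157) by coding length. RPS7 was at 0.99 (adjusted p = 0.00927) and 1.59 (adjusted p = 0.0221), and RPS18 at 0.91 (adjusted p = 0.00948) and 1.44 (adjusted p = 0.0270). RPS2, which was at 1.12 with no step for length, was at 0.08 by transcript length and 0.78 by coding length.

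Some members stood apart from the family in the same direction in both pos libraries. Set against the median of tested members in each library, 7 members were at least 0.3 higher on the log2 scale in both pos libraries, a limit chosen after the values were seen. They were RPS3A, RPS7, RPS18, RPS21, RPS15A, RPS14 and RPL27A, of which 6 are small subunit genes. RPS3A stood 0.78 and 0.31 above the median in pos replicates 1 and 3, and RPS18 0.58 and 0.58. Another 7 were at least 0.3 lower in both, RPL36A, RPL22, RPL7, RPL3, RPL4, RPL11 and RPS2, of which 6 are large subunit genes. RPL22 was at -0.62 and -1.46 relative to the median, and RPL7 at -0.54 and -1.37. Both sets come from ratios with no step for length, and some members leave them with one. With the transcript length trend removed, medians of members were 0.50 and 0.81 in pos replicates 1 and 3. RPS3A was then at 1.19 and 0.94, RPS18 at 0.93 and 0.90 and RPL4 at 0.46 and 0.93. With the coding length trend removed, RPL3 was at 0.41 and 1.33, against medians of 0.49 and 1.27. RPS14, RPS15A, RPL22 and RPL7 kept their place in both fits. Members lie on 21 chromosomes, with 12 on chromosome 19 and 4 on X (GENCODE 44), and both sets of 7 are spread over several of them.

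Other genes of translation, many with TOP tracts, had a lower median log2 fold change than the members. It was 0.83 against 1.62 with no step for length. The medians lay closer with the transcript length trend removed (0.46 against 0.65) or the coding length trend removed (0.71 against 0.92). Of 19 tested elongation factors and other such genes 2 rose and 0 fell, where 5.06% of all tested genes rose and 4.13% fell. The median log2 fold change of the list was 0.83. An unadjusted p under 0.05 was reached by 12, and DESeq2 called 10 higher, against 34.6% and 13.2% of all tested genes. EEF1B2, a guanine exchange factor of elongation factor 1, had 1427 and 2647 CPM in pos, against 677, 546 and 513 CPM in neg (log2 fold change 1.82, SE 0.32, adjusted p = 0.0382). TPT1 had 7168 and 10296 CPM in pos, against 3363, 3457 and 3718 CPM in neg (log2 fold change 1.31, SE 0.26, adjusted p = 0.0426). EEF1A1, which delivers aminoacyl-tRNA, was at 0.84 (SE 0.25, adjusted p = 0.0808). The initiation factor subunit gene EIF3K was at 1.67 (SE 0.43, adjusted p = 0.0609) and BTF3 at 1.07 (SE 0.27, adjusted p = 0.0584). FAU, which encodes the small subunit protein eS30 fused to a ubiquitin-like protein, falls outside the symbol rule and did not pass in edgeR. FAU had 834 and 2493 CPM in pos, against 537, 453 and 345 CPM in neg (log2 fold change 1.90, SE 0.47, adjusted p = 0.0566). Both pos libraries lay above all neg libraries for FAU. Of 10 tested chaperones and importins that escort new ribosomal proteins 0 passed in either direction in edgeR, at a median of 0.15. Of all tested genes 5.06% rose and 4.13% fell in that test. An unadjusted p under 0.05 was reached by 4, near the share of 34.6% of all tested genes. DESeq2 called 0 of the 10 higher and 0 lower. PDCD2, which escorts RPS2, was at 0.57 (SE 0.19, adjusted p = 0.1003) and TSR2, which escorts RPS26, at 0.57 (SE 0.20, adjusted p = 0.107). PDCD2L was at 0.67 and the importin gene IPO9 at -0.53, and both changed sign with the transcript length trend removed. The lists were written by hand, and no difference between a list and the members was tested.

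The table also has 30 rows for ribosomal protein pseudogenes. They held 587 and 979 reads in pos replicates 1 and 3, against 786, 760 and 617 in neg replicates 1, 2 and 3, and 5 of the rows had none. That was 0.0296% and 0.0251% of member reads in pos, against 0.0551% to 0.0634% in neg. Reads that map equally to a gene and to a pseudogene, and how they were treated, cannot be seen in the table.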

How the data were processed

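Stranded mRNA libraries (TruSeq) were aligned with STAR, per the labels' protocols. The authors deposited one table of raw counts per gene symbol. The submitters' processing notes list CASAVA 1.8.2, STAR 2.5.2b and DESeq2 1.24.0. The build is given as hg19 there and as GRCh38 in the labels' protocols, so no coordinates come from the authors. The counting program is not given in the sources used here, nor is its strand setting. The table's 92 spike-in rows were left out.

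The test was edgeR 4.0.16 in R 4.3.3: filterByExpr (minimum count 10, minimum total 15), TMM scaling, glmQLFit and glmQLFTest, pos against neg, two-sided, Benjamini-Hochberg over 13604 genes at 0.05. SE is the log2 fold change over the square root of F. CPM values are TMM-normalised, and log2 ratios to the neg mean use log2 CPM with a prior count of 2. Length trends were lowess fits (span 0.3) of log2 CPM on the log10 length of the GENCODE 44 canonical transcript, present for 96.9% of tested genes, or of its coding sequence (92.3%), used as offsets. DESeq2 1.42.0 was an alternative. The fit was first tested on simulated counts. Sequences and starts are from RefSeq (GRCh38.p14).

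At these totals 3 counts are 0.212 to 0.276 CPM of total counts. Such floors cover counting error only. Members, gene lists and tests were chosen with earlier results of these data known. Genes were named by rule: MUC1, the 6 largest and 6 smallest log2 fold changes, the 5 highest levels per length in neg, the 5 smallest p, stalk, 5S, paralog, untested and Diamond-Blackfan anemia members, RPSA, RPS27A and 4 of every other list. A few further members are named after their values were seen, and some genes that the rule names are not reported here.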

Additional observations from a re-analysis of the deposited data

How the results depend on the processing

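Every alternative left 0 members lower in pos. Shares in brackets are those of all tested genes called higher. The count of members past the threshold was 21 in edgeR (5.06%). It was 11 when only library size was scaled for (1.09%), where the median of all tested genes was -0.41. It was 36 with no filter (4.03%), 72 with DESeq2 (13.2%) and 36 with the length trend removed (7.45%). It was 39 with the length trend of the other genes removed (7.56%) and 0 with the replicate number as a block (0.0588%). With the block 27 of 76 members had an unadjusted p under 0.05, against 12.3% of all tested genes. Leaving out one library gave 0 to 75 members, the highest without pos replicate 1, where 30.9% of all tested genes were called higher. With the length trend also removed it was 66 without pos replicate 1 (26.1% of all tested genes) and 50 without pos replicate 3 (16.7%). The median log2 fold change of members was 0.65 with the length trend removed, 0.68 with the trend of the other genes removed, 0.62 with the length trend removed and the replicate block, and 0.92 with the coding length trend removed, against 1.62, and 0.79 to 2.21 when one library was left out (0.98 without pos replicate 1 and 0.51 without pos replicate 3 with the length trend also removed). The large minus small subunit difference was -0.35, and -0.39 with no filter, -0.29, -0.26 and -0.27 in the 3 transcript length fits in the same order, -0.30 by coding length, -0.37 to -0.26 when one library was left out and -0.35 to -0.21 when this was done with the length trend removed. The median of pos replicate 1 was 0.50, 0.51, 0.50 and 0.49 in the same 4 length fits, 0.74 to 0.92 when one library was left out and 0.51 without pos replicate 3 with the length trend also removed. That of pos replicate 3 was 0.81, 0.86, 0.81 and 1.27, 1.51 with library size only, 2.11 to 2.29 when one library was left out and 0.96 without pos replicate 1 with the length trend also removed. The causes of these differences were not tested.

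Named genes whose direction turned were RPL36A (-0.26) and RPL7L1 (-0.20) with library size only. With the length trend removed they were RPL36A (-0.89), RPL7 (-0.19), RPL39 (-0.28), RPL36AL (-0.19), IPO9 (0.36) and PDCD2L (-0.16). With the length trend of the other genes removed they were RPL36A (-0.88), RPL7 (-0.19), RPL39 (-0.24), RPL36AL (-0.17), IPO9 (0.36) and PDCD2L (-0.15). With the length trend removed and the replicate block they were RPL36A (-0.996), RPL7 (-0.20), RPL39 (-0.15), RPL36AL (-0.23), IPO9 (0.32), PDCD2L (-0.13) and RPL17 (-0.13). With the coding length trend removed they were RPL36A (-0.77), RPL22 (-0.33), RPL39 (-0.64), RPL36AL (-0.00051) and RPL7L1 (-0.16). Without pos replicate 1 RPL7L1 (-0.12, against 0.35 without pos replicate 3) and the leukocyte gene CD14 (0.81, against -6.87 without pos replicate 3, 20 reads at most) turned, and without pos replicate 3 RPL36A (-0.12). With the length trend also removed, RPL36A (-1.12), RPL7 (-0.32), RPL39 (-0.45), RPL36AL (-0.12), IPO9 (0.70), PDCD2L (-0.19), RPL17 (-0.37), EPCAM (-0.24) and VWF (0.087) turned without pos replicate 1, and RPL36A (-0.55), RPL7 (-0.046), RPL36AL (-0.11) and PDCD2L (-0.084) without pos replicate 3.

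The labels do not say whether libraries with the same replicate number belong together. Over tested genes the deviations of same-numbered libraries from their group means correlated at -0.44 and -0.45, and with the block 87 of 13604 genes passed. The deviations of the pos libraries from their shared mean are equal and opposite. These correlations are therefore not independent of each other and cannot settle the pairing. Depth left 5 members untested.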
